A study of Drosophila melanogaster with 4 samples.

Results

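The peaks described here are the binding sites of the CG8924 protein that lie outside annotated genes but not far from a gene's start. They were chosen by position alone. A peak of the reproducibility-thresholded list was kept when its summit lay outside every annotated gene, transposable elements left out, and more than 500 but at most 2000 bp from the nearest annotated transcription start site (TSS). This rule took 407 of the 7842 thresholded peaks (5.19%). The study mapped the binding of 1 protein by chromatin immunoprecipitation followed by sequencing (ChIP-seq), in which antibody-bound chromatin is recovered and its DNA is sequenced. There was 1 group, of 4 biological replicates, and no second condition. Every replicate came from whole Drosophila melanogaster embryos of pooled sex, aged 0 to 24 h, of 1 transgenic line that stably carries CG8924 with a GFP tag at its C terminus. Antibodies to the tag were used, so the measurement is of the tagged protein and is averaged over all cells and ages in the embryos. The labels name neither the promoter that drives the fusion nor the state of the native gene.

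Intergenic DNA within a few kilobases of a gene's start can hold enhancers, which raise transcription from a distance, silencers such as Polycomb response elements, insulators that separate neighbouring domains, and the unannotated starts of other transcripts. Sites that transcription factors occupy are often depleted of nucleosomes, and in flies the core promoters themselves carry short sequence elements such as the DRE, the M1BP site (motif 1) and the TATA box. Binding at such a position does not show which gene, if any, is regulated, so in what follows a gene name only says whose TSS is nearest.

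The 101 bases centred on the summit are shown for 8 of the 9 highest-signal sites that all 4 replicates supported, and for the highest-signal such site with a TATA box (chinmo) and with the AT-rich word (stck), because the base composition at the summit is one of the results. The sequences are the forward strand of dm6 read from the RefSeq copy of that assembly. Capitals mark every match, on either strand, to the 3 most frequent of the searched motifs that were higher at summits than beside them: TATAAA, a core promoter element, AAATAAA, an AT-rich word, and CGATA, the core of the BEAF-32 insulator site. The choice was made on the thresholded list, and in the own lists of the replicates CGATA was higher than beside the summits in only 2 of 4. In the order shown they lie at chrX:2124097-2124197, chr3R:12403079-12403179, chr3R:16224465-16224565, chr3R:16222443-16222543, chr2L:12006745-12006845, chr3L:9855891-9855991, chrX:493947-494047, chr3R:16221812-16221912, chr2L:1649664-1649764 and chr3R:8355717-8355817.
ph-d: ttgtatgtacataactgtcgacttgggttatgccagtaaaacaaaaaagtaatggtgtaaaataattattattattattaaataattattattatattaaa
DNAlig3: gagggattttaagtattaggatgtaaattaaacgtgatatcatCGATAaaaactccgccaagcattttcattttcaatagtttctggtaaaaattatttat
lncRNA:CR45643, site beyond the gene: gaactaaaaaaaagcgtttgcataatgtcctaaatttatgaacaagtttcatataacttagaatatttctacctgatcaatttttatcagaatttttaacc
lncRNA:CR45643, nearest upstream site: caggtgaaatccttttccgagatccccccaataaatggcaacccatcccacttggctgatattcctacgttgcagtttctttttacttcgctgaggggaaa
Rh5: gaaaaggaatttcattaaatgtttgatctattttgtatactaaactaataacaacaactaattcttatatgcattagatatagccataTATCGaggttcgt
RasGAP1: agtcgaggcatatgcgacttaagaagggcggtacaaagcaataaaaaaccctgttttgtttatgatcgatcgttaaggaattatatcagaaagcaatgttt
CG17896: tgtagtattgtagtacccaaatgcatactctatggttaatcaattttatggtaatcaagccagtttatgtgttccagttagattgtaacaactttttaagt
lncRNA:CR45643, farthest upstream site: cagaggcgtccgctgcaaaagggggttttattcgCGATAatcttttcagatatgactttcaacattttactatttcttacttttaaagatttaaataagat
chinmo: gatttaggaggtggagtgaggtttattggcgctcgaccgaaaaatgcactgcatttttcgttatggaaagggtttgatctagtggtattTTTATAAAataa
stck: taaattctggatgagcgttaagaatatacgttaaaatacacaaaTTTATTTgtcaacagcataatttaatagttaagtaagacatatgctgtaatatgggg

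The ph-d window held only 19.8% G and C, against 40.6% in windows of the same length centred 500 bp to either side, and much of its second part was a run of A and T alone. Those at DNAlig3 (27.7%) and CG17896 (30.7%) were likewise poorer in G and C than their side windows (41.1% and 51.0%). The nearest upstream site of lncRNA:CR45643 went the other way, with 46.5% at the summit and 24.8% beside it, as did RasGAP1 with 36.6% and 34.7%. Of the 20 highest-signal sites supported by all 4 replicates, 17 had a lower GC content than their side windows, and their GC content ran from 19.8% to 46.5% with a median of 28.7%.

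Each deposited peak carries a signal value from the authors, which has a scale of its own in every list and here served only to rank peaks within one. Among the 407 sites the lowest signal in the thresholded list was 296, the median 474 and the highest 4258, and the peaks were 121 to 1278 bp wide (median 380 bp). The sites were spread over the whole range of the list, with 91, 97, 99 and 120 of them in its signal quartiles from highest to lowest. In the top 1000 peaks there were 43 (4.30%). In each replicate, the 7842 highest-signal peaks were taken as that replicate's own list, as many as the thresholded list holds. Within the own lists the median rank percentile of summits that met the position rule, where a higher percentile means a weaker peak, was 53.9, 48.8, 59.3 and 50.3 in replicates 1 to 4, against 47.1, 48.5, 45.8 and 47.0 for promoter summits, those within 500 bp of a TSS. All 4 replicates thus ranked them weaker than promoter peaks, by 5.97 ± 5.63 percentile points (SD, n = 4), a mean close to its own SD. The size of this gap depended on how deep the lists were taken: with own lists of 15684 peaks it was 14.5 ± 4.06 points, and with lists of 3921 it was 4.32 points and no longer shared by all 4 replicates, as also for summits beyond 1000 bp (4.41 points). Against all other peaks the difference was 3.17 ± 4.82 points and pointed the other way in replicate 2. Differences between classes of site were tested with the exact two-sided sign-flip permutation test over the 4 replicates, whose smallest possible p is 0.125, so none could pass 0.05. How many replicates shared the direction is given instead.

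**Figure D1:**
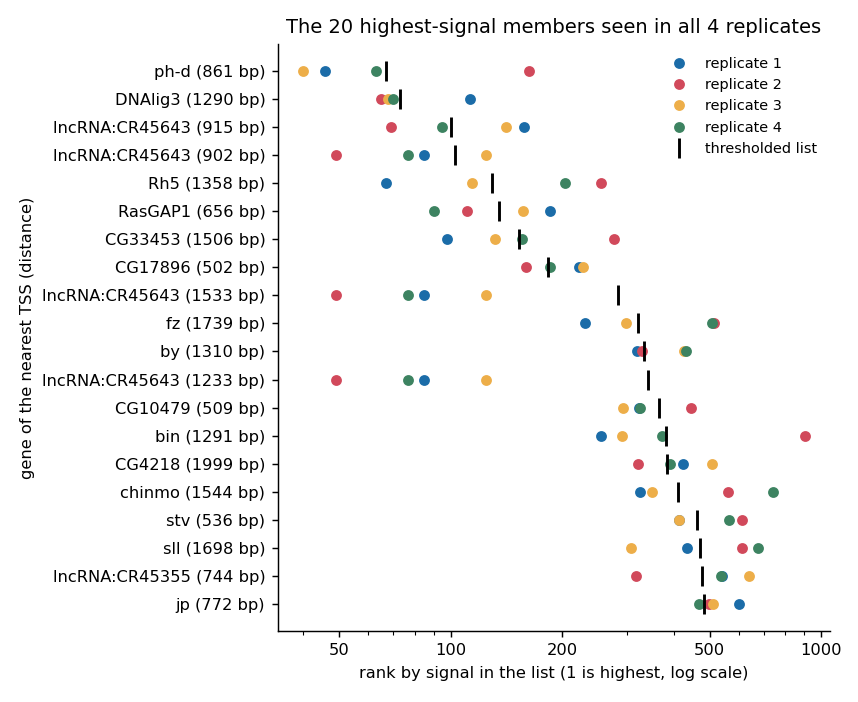
Rank by signal (horizontal axis, log scale, 1 is the highest) of the 20 highest-signal intergenic sites between 500 and 2000 bp from a TSS that all 4 replicates supported, by gene of the nearest TSS and distance to it; coloured points are the replicates and black bars the thresholded list. Every replicate ranked all 20 within its first 901 peaks.

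The strongest site lay 861 bp upstream of ph-d, which encodes a subunit of Polycomb repressive complex 1, in the 2923 bp between it and its sister gene ph-p. It ranked 67 in the thresholded list, and 46, 163, 40 and 63 in replicates 1 to 4, with replicate 2 the lowest. A second thresholded summit lay 807 bp away, and the ph-d TSS itself had a summit within 500 bp. The site next in strength had the TSS of DNAlig3, a DNA ligase gene, as its nearest, 1290 bp away. It sat in the shortest intergenic gap of any of the 407 sites, 437 bp between the converging genes Sol1 and Cyp9f2, and ranked 113, 65, 68 and 70 in the replicates. Only replicate 1 placed it outside the first 100.

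The long non-coding RNA gene lncRNA:CR45643, whose neighbour on the far side is tara, carried 4 of the 20 strongest sites. One lay 915 bp from one of its TSSs and beyond its 3′ end, at rank 100 in the thresholded list and ranks 158, 69, 141 and 95 in the replicates. The other 3 lay 902, 1233 and 1533 bp upstream of another of its TSSs, at ranks 103, 341 and 282. Those 3 summits share 1 peak interval of 1155 bp and so are overlapped by the same replicate peaks, which ranked 85, 49, 125 and 77. When a replicate peak had to share at least 50% of its length with the site and the reverse, each of these 3 was supported by 1 replicate only. Under that rule 14 of the 20 strongest sites kept all 4 replicates, while the remainder included Rh5 and fz with 3 replicates and bin with 2.

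The other strong sites were near genes of varied function. Rh5, which encodes a rhodopsin of photoreceptor cells, had a site 1358 bp upstream with replicate ranks of 67, 254, 114 and 204. RasGAP1, a GTPase-activating protein for Ras, had a site 656 bp upstream with ranks of 186, 111, 157 and 90. The site 1739 bp upstream of fz, which encodes a Wnt receptor that also acts in planar polarity, had ranks of 230, 515, 298 and 507. The site 1310 bp upstream of by, a tensin gene of integrin adhesions, had ranks of 319, 328, 426 and 431. In difference of ranks, the widest range among the 20 was at bin, which encodes the forkhead factor of the visceral mesoderm. Its site 1291 bp upstream ranked 254, 901, 290 and 372, with replicate 2 again the lowest. As a ratio of the largest to the smallest rank, the widest was at ph-d, 4.075 against 3.55 at bin. The site 1544 bp upstream of chinmo, a BTB zinc-finger factor that acts in the temporal identity of neurons, ranked 325, 559, 350 and 740. Sites near stv (a BAG-domain co-chaperone), sll (a Golgi transporter of the sulfate donor PAPS), jp (junctophilin), CG33453, CG17896, CG10479, CG4218 and lncRNA:CR45355 completed the set, with thresholded ranks between 153 and 482. Of the 20, 18 lay upstream of the nearest TSS, 15 had a protein-coding nearest gene, and 8 had a further summit within 500 bp of that TSS.

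A replicate was said to support a thresholded peak when a peak of its own list overlapped it by at least 1 bp. All 4 replicates supported 221 of the 407 sites (54.3%, 95% exact binomial interval 49.3 to 59.2), against 64.2% of all 7842 thresholded peaks. Another 99 were supported by 3 replicates, 63 by 2, 23 by 1 and 1 by none. The last was 1406 bp past the TSS of CG11458, beyond that gene, at thresholded rank 7543, and replicates 1 and 3 ranked it 8216 and 9990, below their own lists, while replicates 2 and 4 had no peak over it. The share of sites supported by all 4 was 68.4% among promoter peaks, 63.7% among peaks inside genes at the same distance from a TSS, 59.0% among intergenic peaks farther out and 58.0% among peaks inside genes and farther out. Such intervals cover counting error only, and peaks are not biological replicates.

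By replicate, 349 (85.7%), 345 (84.8%), 312 (76.7%) and 324 (79.6%) of the 407 sites were supported by replicates 1 to 4. Replicate 1, which took no part in making the thresholded list, supported 85.9% of the whole list, so its share among the sites was close to that of the list. The gap came from the other replicates, and against the rest of the list it was -0.11 points in replicate 1, and -3.94, -7.69 and -6.49 points in replicates 2, 3 and 4. The mean was 81.7 ± 4.31% for the sites and 86.3 ± 1.81% for the rest (SD, n = 4), lower in 4 of 4 replicates (exact sign-flip p = 0.125). Against promoter peaks the difference was -6.42 ± 5.52 points, also in 4 of 4, with -0.42 points in replicate 1. Replicates 2, 3 and 4 made the thresholded list, so their support is not independent of it. Sharing a direction in 4 of 4 is thus not agreement of 4 independent replicates. Both gaps were small with own lists of 15684 peaks, at -0.494 points from the rest and -0.583 from promoter peaks. They were no longer shared by all 4 replicates when peaks had to overlap by 50% of both (-2.30 and -3.33 points), when summits had to lie within 100 bp (-2.37 and -2.62 points) or for sites beyond 1000 bp (-3.80 and -5.79 points). With protein-coding genes only, the gap from the rest was -4.17 points and likewise not shared by all 4. Against intergenic peaks beyond 2000 bp it was -1.42 ± 2.53 points and had no common sign, and with own lists of 3921 peaks it was +4.97. The difference from the rest sat among the weaker peaks of the list. In the highest signal quartile 98.9% of the sites and 98.9% of the rest had all 4 replicates, and in the next 90.7% and 91.1%. In the third quartile the shares were 38.4% and 53.1%, and in the lowest 4.17% and 15.05%. In the full lists of 30000 peaks, only 2, 4, 2 and 6 of the 407 sites had no overlapping peak in replicates 1 to 4.

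**Figure D2:**
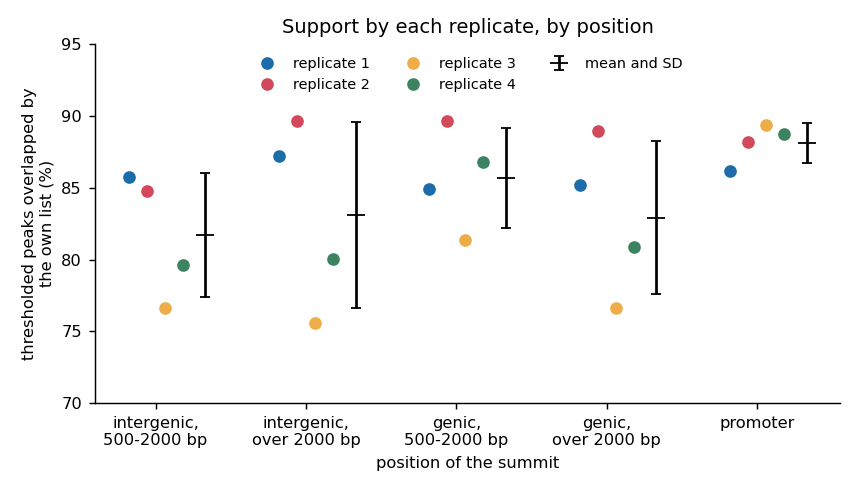
Percent of thresholded peaks (vertical axis, from 70%) overlapped by each replicate's own list, by position of the summit; black marks are the mean and SD of the 4 replicates. Intergenic sites between 500 and 2000 bp from a TSS sit at 76.7 to 85.7%, and promoter peaks at 86.2 to 89.3%.

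The position rule is met by 7.39 Mb, or 5.52%, of the 6 chromosome arms. Summits fell in that sequence about as often as its length would give. They made up 5.30%, 5.01%, 4.69% and 4.87% of the own lists of replicates 1 to 4, a log2 ratio to the available sequence of -0.15 ± 0.075 (SD, n = 4) that was below 0 in every replicate (exact sign-flip p = 0.125). The ratio was +0.08 for summits at most 1000 bp away, 0.00 when only protein-coding genes and TSSs defined the class and +0.01 with own lists of 15684 peaks, so its sign depended on the definition. In the pooled list of 30000 peaks, 1860 summits (6.20%) met the rule, 1453 of them below the threshold.

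Within the class, sites were densest next to the inner limit. Per megabase of intergenic sequence at the same distance there were 606 thresholded summits at 1 to 250 bp from a TSS and 161 at 251 to 500 bp. There were 83.9 beyond 500 and up to 750 bp and 45.6 at 751 to 1000 bp. Beyond 1000 and up to 2000 bp the density lay between 39.2 and 54.6 per Mb and showed no further decline. It was 42.3 at 2001 to 2250 bp and 41.5 at 2251 to 2500 bp, and then fell to 30.7 at 2501 to 2750 bp and 28.8 at 2751 to 3000 bp. In the bins from 3001 to 5000 bp it ran from 26.6 to 49.4. In the own lists the mean was 71.6 ± 7.90 per Mb up to 750 bp and 51.3 ± 5.22 at 751 to 1000 bp (SD, n = 4). At the inner limit, the 3 thresholded summits just inside lay 502, 502 and 503 bp from a TSS and had ranks 183, 4491 and 1643, and the 3 just outside lay 499, 497 and 493 bp away and had ranks 4621, 2630 and 2751. At the outer limit, the 3 just inside lay 1999, 1997 and 1994 bp away and had ranks 384, 7186 and 4663, and the 3 just outside lay 2007, 2016 and 2020 bp away and had ranks 6911, 5126 and 7204.

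**Figure D3:**
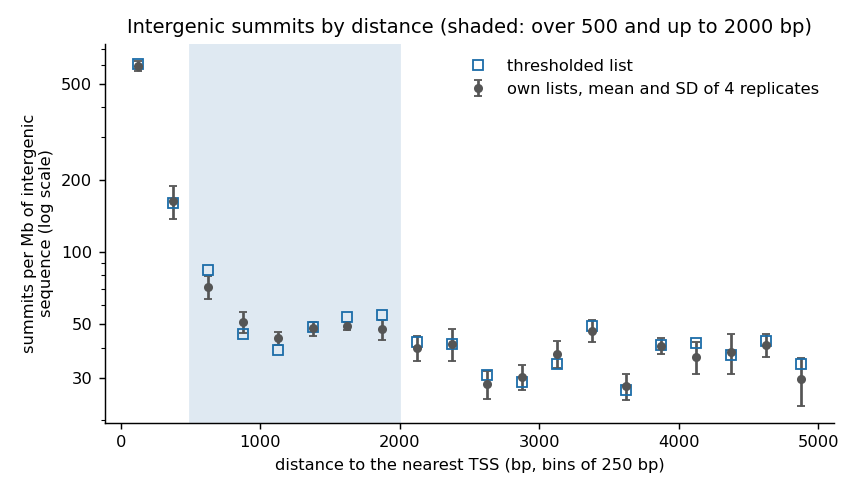
Summits per Mb of intergenic sequence (vertical axis, log scale) by distance to the nearest TSS in bins of 250 bp; open squares are the thresholded list, and points with bars the mean and SD of the 4 own lists. The shaded class starts at 83.9 per Mb and from 751 bp on stays between 39.2 and 54.6 per Mb.

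Of the 407 sites, 301 (74.0%, exact interval 69.4 to 78.2) lay upstream of the nearest TSS and 106 lay past the 3′ end of the gene it belongs to. The available sequence was 71.9% upstream, and 74.5%, 76.3%, 77.4% and 76.2% of the class summits in replicates 1 to 4 were. The median distance to the TSS was 1103 bp. The gap between the flanking genes had a median length of 4371 bp. Gaps between divergently transcribed genes held 139 sites (34.2%), against 30.2% of the available sequence, and the own lists gave 35.2 ± 1.20% (SD, n = 4), above the available share in every replicate. Gaps between converging genes held 51 (12.5%), against 15.8%, and were below it in every replicate at 12.5 ± 0.681%. Tandem gaps held 216 (53.1%), against 53.8%. Another thresholded summit lay within 2000 bp of 228 sites (56.0%), at a median distance over all sites of 1663 bp.

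The sites were unevenly spread over the arms. Arm 3L held 117 (28.7%), with 21.3% of the available sequence, and its share in the replicates ran from 26.2% to 30.5%. Arm 2L held 101 (24.8%), with 21.9% of the available sequence and 23.6% to 27.7% in the replicates. The shares were below the available sequence on X, with 45 sites (11.1% against 14.9%, replicates 9.67% to 13.0%), on 2R, with 54 (13.3% against 17.7%, replicates 12.02% to 14.7%), and on 3R, with 85 (20.9% against 23.3%, replicates 19.95% to 21.5%). Chromosome 4 held 5. On all 5 large arms the 4 replicates lay on the same side of the available share. The X held 17.9% of all thresholded peaks.

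The nearest TSS had a thresholded summit of its own within 500 bp for 120 of the 407 sites (29.5%, exact interval 25.1 to 34.2), against 25.6% of all 23581 TSSs. In the own lists these shares were 27.6%, 27.7%, 34.5% and 31.9% for the class and 24.9%, 25.2%, 25.8% and 25.5% for all TSSs, higher for the class in 4 of 4 replicates by 5.12 ± 2.99 points (SD, n = 4). Against intergenic summits beyond 2000 bp the class was higher by 7.20 ± 3.42 points, again in 4 of 4. Both differences changed sign, to -3.19 and -0.37 points, when the summit had to lie within 200 bp of the TSS. For sites beyond 1000 bp the first was 2.94 points and not shared by all 4 replicates. Split by type, 86 of the 271 sites with a protein-coding nearest TSS had one that was bound (31.7%, against 29.2% of coding TSSs), and 34 of the 136 with a non-coding one (25%, against 9.56% of non-coding TSSs). The higher share thus lay mostly with non-coding TSSs. All 34 of those sites were nearest to long non-coding RNA genes, and some shared a gene. The 9.56% is over non-coding TSSs of every type, and no share is given for long non-coding RNAs alone.

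Nearest TSSs were those of protein-coding genes for 271 sites (66.6%) and of ncRNA genes, mostly long non-coding RNAs, for 126 (31.0%, exact interval 26.5 to 35.7). Only 14.3% of TSSs belong to ncRNA genes, but 27.6% of the available sequence has one as its nearest, and the own lists gave 31.6 ± 1.91% (SD, n = 4). Transfer RNA genes were nearest to 8 sites, and a snoRNA gene and a pseudogene to 1 each. The 407 sites shared 363 nearest TSSs of 360 genes. No TSS had more than 3, and those with 3 were of lncRNA:CR45643, lncRNA:CR43883, lncRNA:CR45297, CG13898 and lncRNA:CR44720. At lncRNA:CR45297 the 3 sites lay 680, 895 and 1769 bp beyond the TSS, past the gene. The middle one, at thresholded rank 1229, was overlapped by no peak of replicate 1, while the replicate 1 peak at the site 680 bp away ranked 705. At CG13898 the thresholded ranks were 1301, 3538 and 7769, and the last of these was supported by 1 replicate.

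Genes of known pathways were then counted from lists drawn up for the whole study. Both the lists and the sites were chosen with earlier results of these data known, so the counts are a description and were not tested. Protein-coding genes that own the nearest TSS of a site numbered 247 of 13945 (1.77%). The counts for lists of coding genes below stand beside this share. In 22 lists of developmental, signalling, chromatin, cell cycle, heat shock, glycolysis and similar genes, 29 of 372 genes did (7.80%). Families matched by symbol, such as the 92 cytoplasmic and 73 mitochondrial ribosomal protein genes, are not among the 372. These counts were not adjusted for the length of intergenic sequence beside each gene, and the part of that length in them was not tested. Of the genes in the lists, 18 kept a site when all 4 replicates had to support it. No homeotic (of 8), dorsal-ventral patterning (16), Hedgehog pathway (13), insulator (18), heat shock (20) or glycolysis (12) gene was nearest to a site. Nor was any cytoplasmic (92) or mitochondrial (73) ribosomal protein gene. The 1.77% share over all coding genes would give few or none in lists of these sizes, so these absences are not read as a trait of the families. In the own lists, up to 1 Hedgehog pathway gene and up to 1 cytoplasmic ribosomal protein gene had a site.

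Of 14 regulators of mesoderm and muscle, 4 had a site (bin, srp, Him and lmd), and 3 of them had one that all 4 replicates supported. The site 1526 bp upstream of srp, a GATA factor of blood and fat body, ranked 2871 in the thresholded list and 2608, 2024, 7234 and 4469 in the replicates, with replicate 3 far below the others. The site 1737 bp upstream of Him, which restrains muscle differentiation, ranked 5319 and was closer between replicates at 6239, 5386, 5709 and 5882. Its window held 18.8% G and C.

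In the EGFR and FGF pathways 4 of 25 genes had a site (aop, pnt, kek1 and edl), including both ETS factors that act at the end of the EGFR cascade. The repressor gene aop had 2 sites, 1534 and 816 bp upstream. The farther one ranked 524 in the thresholded list and 878, 284, 825 and 324 in the replicates, and the nearer one ranked 2092 and 1767, 1359, 1791 and 5573, with replicate 4 much the lowest. The activator gene pnt had a site 869 bp upstream at rank 2250, with replicate ranks of 1812, 1947, 3262 and 2224. In the Notch pathway 4 of 21 genes had a site (E(spl)malpha-BFM, E(spl)m7-HLH, mib1 and Brd). E(spl)malpha-BFM, a Bearded-family antagonist of Notch signalling, had one 1806 bp upstream, at rank 541 with replicate ranks of 653, 398, 616 and 591, and one 855 bp past its TSS at rank 3050. The site 1971 bp upstream of E(spl)m7-HLH, a bHLH repressor induced by Notch, ranked 1780, and 3898, 2240, 1224 and 1271 in the replicates.

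In the Hippo pathway 3 of 13 genes had a site: ds and ft, the atypical cadherins that bind each other between cells, and ex, which acts upstream of the kinases. The ds site, 567 bp upstream, ranked 968, with replicate ranks of 1256, 591, 1570 and 1288. The ft site, 1275 bp upstream, ranked 1899, with replicate ranks of 2008, 1882, 2851 and 2620. The ex site, 989 bp upstream, was supported by 3 replicates and ranked 14931 in replicate 3. Of 20 BTB transcription factor genes 3 had a site, chinmo, ab and lola, each supported by all 4 replicates. The ab site, 1520 bp upstream, ranked 1719, with replicate ranks of 1625, 1717, 2393 and 2325, and the lola site, 1500 bp upstream, ranked 2618.

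Most other lists had few genes with a site. Dad, the inhibitory Smad of the Dpp pathway, had one 1091 bp upstream at rank 2974, and bcd, the anterior morphogen gene, one 1526 bp upstream at rank 3828. Each was supported by all 4 replicates. In the Polycomb and trithorax list ph-d, with the strongest of the 407 sites, was the only gene of 29. The cell cycle list had 2 of 26, Cdk4 at rank 2886 and dap, the cyclin-dependent kinase inhibitor gene, at rank 7703. The dap site had no overlapping peak in replicate 1 and was supported by replicates 2 and 3. Gene families outside development gave 4 of 70 Cpr cuticle protein genes (5.71%), 3 of 185 chemosensory receptor genes (1.62%), 1 of 85 cytochrome P450 genes (1.18%) and 8 of 295 tRNA genes (2.71%). The chemosensory and P450 shares were below the 1.77% over all coding genes. Transfer RNA genes were nearest to 1.97% of the sites and to 1.62% of the available sequence. The site near Or88a had rank 5304 in the thresholded list but was overlapped by replicate peaks of ranks 1732, 731, 1244 and 1012, since an overlapping peak can have its summit elsewhere.

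GC content was lower at the summits than beside them. Within 50 bp of the summit it averaged 32.3% over the 407 sites, against 41.9% in the side windows, and 320 sites (78.6%) were below their own side windows. In the own lists the class mean was 31.1%, 33.2%, 34.2% and 35.0% in replicates 1 to 4, against 43.0%, 41.1%, 41.8% and 41.4% beside the summits, a difference of -8.48 ± 2.40 points (SD, n = 4) in the same direction in 4 of 4 replicates (exact sign-flip p = 0.125). Replicate 1 had the deepest dip and replicate 4 the shallowest. The side windows, also used for the motifs below, were placed 500 bp away whatever lay there. Some of them therefore fall in promoters or genes. For the 185 sites at most 1000 bp from the nearest TSS, 1 side window is centred within 500 bp of that TSS. A dip in GC content was also present at promoter summits and at intergenic summits farther out. The class differed from genic summits beyond 2000 bp by only -0.067 ± 0.265 points (SD, n = 4), a direction shared by 2 of 4 replicates. Class summits were poorer in G and C than promoter summits (difference -2.99 ± 0.786 points) and than genic summits at the same distance (-1.11 ± 0.429 points), and richer than intergenic summits beyond 2000 bp (1.69 ± 0.324 points), each in 4 of 4 replicates. The last 2 were sensitive to the settings: the difference from genic summits was -0.087 points with own lists of 3921 peaks and -0.63 up to 1000 bp, and that from intergenic summits beyond 2000 bp was 0.380 with own lists of 15684 peaks, none of them shared by all 4 replicates. With windows of 100 bp either side the difference from intergenic summits farther out was 0.553 points. Against promoter summits it was -1.41 points with own lists of 3921 peaks. The dip reached 32.4 ± 1.80% at 20 bp from the summit. At 200 to 400 bp from it GC content was 43.1%, which was 1.79 points above the level at 800 to 1500 bp. These shoulders were 4.46 points high for intergenic summits beyond 2000 bp, while at promoters the same stretch stood at -1.46 points relative to its surroundings. Signal and GC content were only weakly related, with mean GC contents of 30.7%, 32.4%, 30.9% and 34.5% from the highest to the lowest signal quartile and a Spearman rho of -0.11 across the 407 sites, which share libraries.

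**Figure D4:**
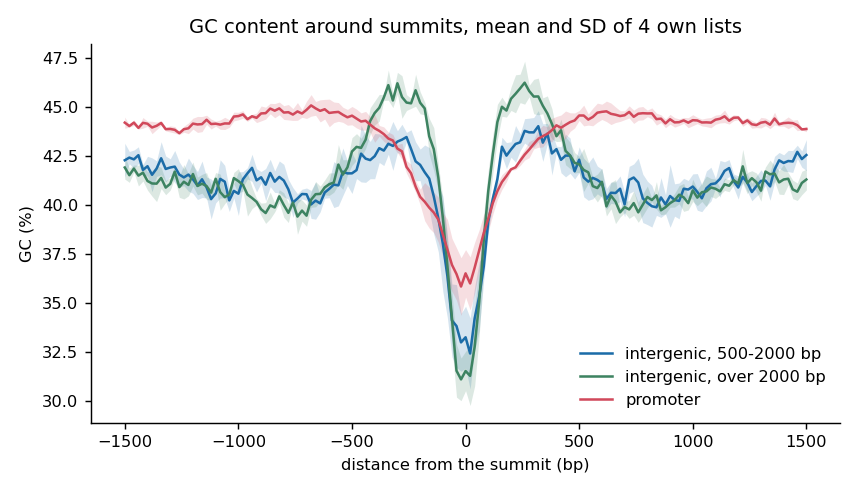
GC content (vertical axis, %) by distance from the summit in the 4 own lists, as the mean (line) and SD (band), for intergenic summits between 500 and 2000 bp from a TSS, intergenic summits farther out and promoter summits. The class dips to 32.4%, between the other intergenic summits at 31.1% and promoters at 35.9%.

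Of the 26 motifs searched on both strands within 50 bp of summits, 6 were more frequent in the class than in its side windows in all 4 replicates and 9 were less frequent. After Benjamini-Hochberg adjustment over the 26, the smallest p of the exact sign-flip test was 0.217. Motifs are named where the mean difference reached 2 percentage points. The shares were not corrected for base composition. TATAAA, the TATA box, was in 93 of the 407 sites (22.9%, against 12.5% of side windows and 22.8% of all thresholded peaks), and in the own lists it was higher by 9.31 ± 1.63 points. AAATAAA was in 57 sites (14.0%, against 10.6% of side windows and 17.8% of all peaks), higher by 5.63 ± 2.16 points, and TAATTA, the core that many homeodomains bind, in 46 (11.3%, against 6.39% and 10.4%), higher by 4.17 ± 1.76 points. All 3 consist of A and T. The other motifs that were higher in all 4 replicates fell short of 2 points and do contain G and C. They were CAGGTA, the Zelda word (1.09 ± 1.21 points), GATAAG, the GATA word (1.30 ± 0.541 points), and TGCATAC, the Su(Hw) core (0.762 ± 0.352 points). The motifs that were lower contain G and C: GCCATT, the core of the site of the Polycomb recruiter Pho, was in 14 sites (3.44%, against 6.63% of side windows and 4.71% of all peaks), a difference of -2.97 ± 0.948 points, and CATGTG, an E-box, in 9 (2.21%, against 5.53% and 3.52%), a difference of -2.12 ± 0.202 points.

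Several elements of fly core promoters were rarer in the class than at promoter summits. The differences given are between means of the own lists. The TATA box was not among these elements. TATAAA was in 22.9% of the sites and 21.0% of promoter summits. In the own lists it was higher by 0.940 ± 0.334 points (SD, n = 4) in 4 of 4 replicates, less than the 2 points set for naming. CGATA was in 51 of the 407 sites (12.5%), against 20.8% of promoter summits and 15.6% of all peaks, and in the own lists it had a difference of -9.95 ± 2.70 points (SD, n = 4). TATCGATA, the DRE bound by DREF, which contains CGATA, was in 1 site (0.246%), against 3.60% of promoter summits and 2.03% of all peaks, a difference of -3.29 ± 0.290 points. GGTCACAC, the core of the M1BP site, was in none of the 407, where the exact interval allows up to 0.902%, against 3.02% of promoter summits and 1.67% of all peaks, a difference of -2.79 ± 0.288 points. CAGCTG, the E-box of promoter motif 5, was in 7 (1.72%), against 5.68% and 4.08%, a difference of -3.44 ± 0.642 points. AAATAAA was also lower than at promoter summits, with a difference of -2.10 ± 1.12 points, although the class has less G and C. This difference was -0.42 points up to 1000 bp, -0.756 with own lists of 15684 peaks and -0.985 with windows of 25 bp, and under those settings it was not shared by all 4 replicates. As first defined, each held in 4 of 4 replicates, with a smallest adjusted exact sign-flip p of 0.191, and in all 12 motifs were lower and 5 higher in every replicate. Against intergenic summits beyond 2000 bp, 4 motifs were higher and 4 lower in the class in every replicate, with a smallest adjusted exact sign-flip p of 0.406. GAGAG, the core of the GAGA factor site, was in 39 sites (9.58%, against 7.88% farther out and 11.3% of all peaks), higher by 3.18 ± 1.70 points. That difference was 0.973 points with protein-coding genes only, 1.76 beyond 1000 bp, 1.76 with windows of 25 bp and 1.73 with windows of 100 bp, and under those settings it was not shared by all 4 replicates. TATAAA had a difference of -6.14 ± 1.22 points, and AGGATA, the Tramtrack core, in 11 sites (2.70%, against 4.95% and 2.73% of all peaks), a difference of -2.21 ± 1.20 points.

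**Figure D5:**
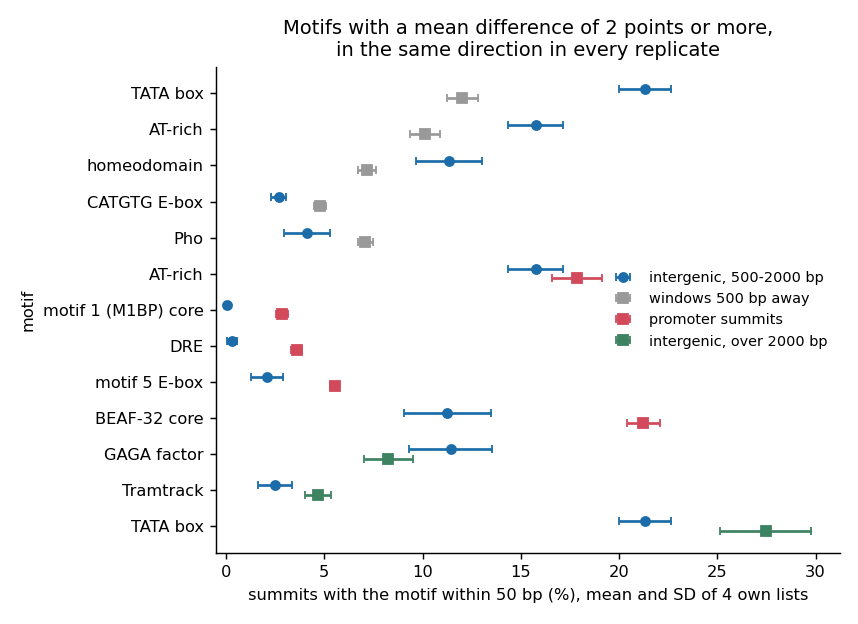
Percent of summits with a motif within 50 bp (horizontal axis), mean and SD of the 4 own lists, for intergenic summits between 500 and 2000 bp from a TSS (blue circles) and the set each is compared with (squares: grey side windows, red promoter summits, green intergenic summits farther out). CGATA (BEAF-32 core) was the motif furthest below promoter summits, with a difference of -9.95 points.

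Words of 8 bases were listed without a motif list. Of 157 words present in at least 3% of the sites, 114 were made of A and T alone, and 1 had 2 or more G or C. ATTTAAAT, which is its own reverse complement, stood highest against the side windows, in 19 sites (4.67%, against 0.614% of side windows, 2.56% of promoter summits and 3.25% of intergenic summits farther out). It was followed by AATATTAT in 17 (4.18%, against 0.614%, 3.05% and 4.48%). TAAAATTA was the most common of the 10 words named, in 22 sites (5.41%, against 1.11%, 3.70% and 3.86%). These words were picked from the same values, so their shares are a description.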

How the data were processed

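ChIP-seq peaks were analysed for 4 biological replicates of 1 group. The authors deposited a list of 30000 peaks for each replicate, a pooled list of 30000 and a thresholded list of 7842, on dm6 per the labels. The deposited signal of a peak was compared only within its own list. Per the deposited notes, the pooled and thresholded lists come from replicates 2, 3 and 4, replicate 1 is in neither, and 1 control file served all lists. The sources used here name neither peak caller nor aligner. Depth is unknown, so no interval that needs it is given.

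Summits were placed with Ensembl release 115 (18164 genes, 23581 TSSs) on 6 arms. Own lists, support, side windows and motif matches were computed with Python 3.11.15, NumPy 2.4.6, SciPy 1.17.1, pandas 2.3.3 and matplotlib 3.10.9, and the steps were checked on simulated data. The sites, gene lists, motifs and tests were chosen with earlier results of these data known. Named are the genes nearest to the 20 highest-signal sites supported by all 4 replicates, up to 3 sites per gene list, the 5 TSSs with most sites, and motifs with a mean difference of at least 2 points shared by all replicates. CG11458, from outside this rule, was chosen after its values were seen. Of the lists, Dl, d and ban had no single match. P-values measure the spread between these replicates only. Alternatives changed the class limits, gene set, own-list length, overlap rule, window and TSS distance, and left out each replicate.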

Additional observations from a re-analysis of the deposited data

Results flagged for a closer look

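At the site nearest to DNAlig3 the rank in replicate 1, 113, stood apart from the ranks of 65 to 70 in the other replicates. The gap between it and its nearest neighbour was 0.896 of the whole range, above Dixon's critical value for 4 samples. It was 1 of 52 sets of 4 values examined in this way, and chance gives about 1 in 20.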

How the results depend on the processing

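No paired analysis was possible because there is 1 group. Of 328 alternative values of tested differences, 315 kept their direction, though not always their size or the agreement of all 4 replicates, and 13 reversed. Where all 4 replicates shared a direction, leaving 1 out could not reverse it. The named motif differences were all chosen for such a shared direction. The count of 315 thus includes values fixed in advance and does not measure robustness. Class limits: the share of summits in the class was 2.23% up to 1000 bp from the TSS and 2.74% beyond 1000 bp, and upstream shares were 80.0% and 68.9%. The matching shares of the available sequence are not given for these limits or for protein-coding genes only. Upstream and divergent shares under those settings therefore cannot be read as a change in binding. Up to 1000 bp the log2 density ratio was 0.0768, the GC difference from genic summits beyond 2000 bp 0.409, 7 motifs were lower than at promoters and 13 list genes had a site. Beyond 1000 bp, 3 motifs were higher than in side windows, 3 higher than at promoters and 8 lower than farther out, with 19 list genes. Protein-coding genes only: share 4.50%, density ratio 0.00044, GC difference from genic summits beyond 2000 bp 0.326, upstream 87.2% and divergent 40.7%, with no non-coding share possible. Own lists of 3921 peaks: support against intergenic peaks beyond 2000 bp was 4.97 points, and against genic peaks beyond 2000 bp support was 0.641, rank 1.82 and GC 1.23 points, with 8 motifs higher than farther out. Own lists 2 times as long: share 5.56%, density ratio 0.0114, 5 motifs lower than in side windows. Windows of 25 bp either side: that GC difference 0.0062, 3 motifs higher than at promoters and 2 higher than farther out. Windows of 100 bp gave 7 motifs lower than farther out. With the TSS summit within 200 bp, the bound-TSS differences were -3.19 and -0.371 points. Named-list genes were 18 with support by all 4 replicates and 17 among the sites of above-median signal. Differences that kept their sign but were not shared by all 4 replicates include AAATAAA against side windows beyond 1000 bp (4.24 points), CATGTG against side windows up to 1000 bp (-1.06) and AGGATA against intergenic summits farther out with protein-coding genes only (-1.41). TATAAA against those summits was -2.36 points with own lists 2 times as long and TAATTA against side windows 2.39. The cause of these changes was not tested.

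Leaving out each replicate in turn gave a share of 4.86 to 5.06% and a density ratio of -0.184 to -0.125. Support differed by -6.04 to -3.51 points from the rest, -2.25 to -0.266 from intergenic peaks farther out, -5.57 to -2.92 from genic peaks at the same distance, -1.83 to -0.233 from genic peaks farther out and -8.42 to -4.33 from promoter peaks. In the same order, rank differed by 1.03 to 4.65, -5.62 to -2.91, 2.01 to 4.55, -2.81 to -0.514 and 3.49 to 7.85 points. GC differed by -9.16 to -7.33 points from side windows, 1.56 to 1.82 from intergenic summits farther out, -1.22 to -0.912 and -0.160 to 0.0336 (positive without replicate 1) from the 2 genic classes and -3.22 to -2.68 from promoters. Motifs higher in every replicate numbered 6 to 7 against side windows, 5 to 6 against promoters and 4 to 7 against intergenic summits farther out (7 without replicate 1 and 7 without replicate 4), and motifs lower 9 to 11, 12 to 15 and 4 to 6. The bound-TSS differences were 3.92 to 5.97 and 5.61 to 8.32 points.

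With 1 group of 4 replicates from 1 line, the smallest exact p is 0.125. The lists hold no read counts, so a weak site cannot be told from a shallow library, and a signal cannot be compared between lists. Sites up to 750 bp away were denser than those farther out, so shares move with the inner limit.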
